A study of Homo sapiens
Mus musculus with 5 samples.

Results

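The integrin subunit genes of the cancer cells and of the host were compared in tumors of H2030-BrM3. This human lung adenocarcinoma line was derived by selection for brain growth, and the tumors were raised in athymic nu/nu mice, whose missing thymus leaves them with few T cells. The 3 brain tumors and 2 orthotopic lung tumors carried the same line, and for the lung tumors the labels state that the cells went into the trachea. All genes whose symbol reads ITGA or ITGB followed by the subunit's number or letter were taken from both species tables. They were 50 of 50152 genes, 23 human genes read as cancer cells and 27 mouse genes read as host tissue, with Itgam entered under 2 mouse identifiers. Human ITGA8, ITGA11 and ITGAD are not analysed here. Nothing in the labels ties each tumor to its own animal, so p-values cover only the spread between these samples, which may be technical. All tumors come from 1 line.

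Integrins are cell surface receptors made of 1 alpha and 1 beta subunit that bind the extracellular matrix or counter-receptors on other cells and, through adaptors, link them to the actin skeleton and to kinases. The alpha subunit largely sets the ligand: ITGA3, ITGA6 and ITGA7 pair with laminin, ITGA1, ITGA2, ITGA10 and ITGA11 with collagen, and ITGA5, ITGA8, ITGAV and ITGA2B with proteins that carry the Arg-Gly-Asp (RGD) motif such as fibronectin and vitronectin. The alpha subunits L, M, X, D and E are those of leukocytes, and ITGA4 and ITGA9 bind the vascular adhesion molecule VCAM1 among other ligands. In brain, laminins lie mainly in the basement membranes of vessels, whereas lung holds laminin, collagen and fibronectin in its airway, alveolar and interstitial matrix.

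Levels are given as RPKM, a read number divided by gene length and by the library's reads of that species, as deposited. The reads behind them numbered 2445904 to 8419288 per library in the human table. In the mouse table they numbered 2710983 to 8636094 in 4 libraries, but 231156 in lung tumor 1, in which 11897 mouse genes were listed at 0. The host part of the 2 lung tumors also differed in kind: the summed RPKM of 9 lung epithelial markers was 990 in lung tumor 1 and 64983 in lung tumor 2, and that of 7 endothelial markers 146 and 1448. The 20% of mouse genes with the longest implied length lay below their own mean in lung tumor 1, by a median log2 deviation of -0.82, against 0.13 to 0.23 in the other 4 libraries, and the same held in the human table (-0.54 against 0.10 to 0.17). Among the longer human members are ITGA10 and ITGA2, with implied lengths of 3170 and 3703 bases. Among the longer mouse members are Itgb8, Itga5 and Itgb3, with 3755, 4473 and 5188 bases. The test covered the 14423 human and 15431 mouse genes with 1 RPKM or more in 2 or more libraries, and genes were called at a limma adjusted p under 0.05. In these mixed tissues, fewer cells of a type and less RNA per cell cannot be told apart.

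In the cancer cells, subunits of the laminin receptors α3β1, α6β1 and α6β4 and of the αv receptors had the 6 highest mean levels. Within single tumors ITGA5 exceeded ITGAV in lung tumor 2 and ITGAE came close to it in lung tumor 1. ITGB1 (GRCh38 chromosome 10, 32900318 to 32958230), the beta subunit shared by most matrix integrins, led with 958, 1586 and 906 RPKM in brain tumors 1, 2 and 3 and, in the same order, 190 and 1041 RPKM in lung tumors 1 and 2. It was the most variable of the abundant subunits, and the low value of lung tumor 1 set its spread. ITGA3 (chromosome 17, 50056110 to 50090481), the alpha subunit of α3β1, was the steadiest, with 647, 638 and 663 RPKM in brain and 433 and 771 RPKM in lung. ITGB4 (chromosome 17, 75721459 to 75757818), which pairs only with ITGA6 and anchors hemidesmosomes to keratin, stood at 393, 343 and 344 RPKM in brain and at 321 and 722 RPKM in lung. ITGB5, a partner of ITGAV in vitronectin binding, held 308, 293 and 595 RPKM in brain and 248 and 558 RPKM in lung. ITGA6 followed with 245, 255 and 178 against 129 and 371 RPKM, and ITGAV with 230, 268 and 271 against 102 and 249 RPKM. In this order by mean RPKM each gene's range over the 5 libraries overlapped that of its neighbour, so that the ranks of neighbours are not separated.

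**Figure D1:**
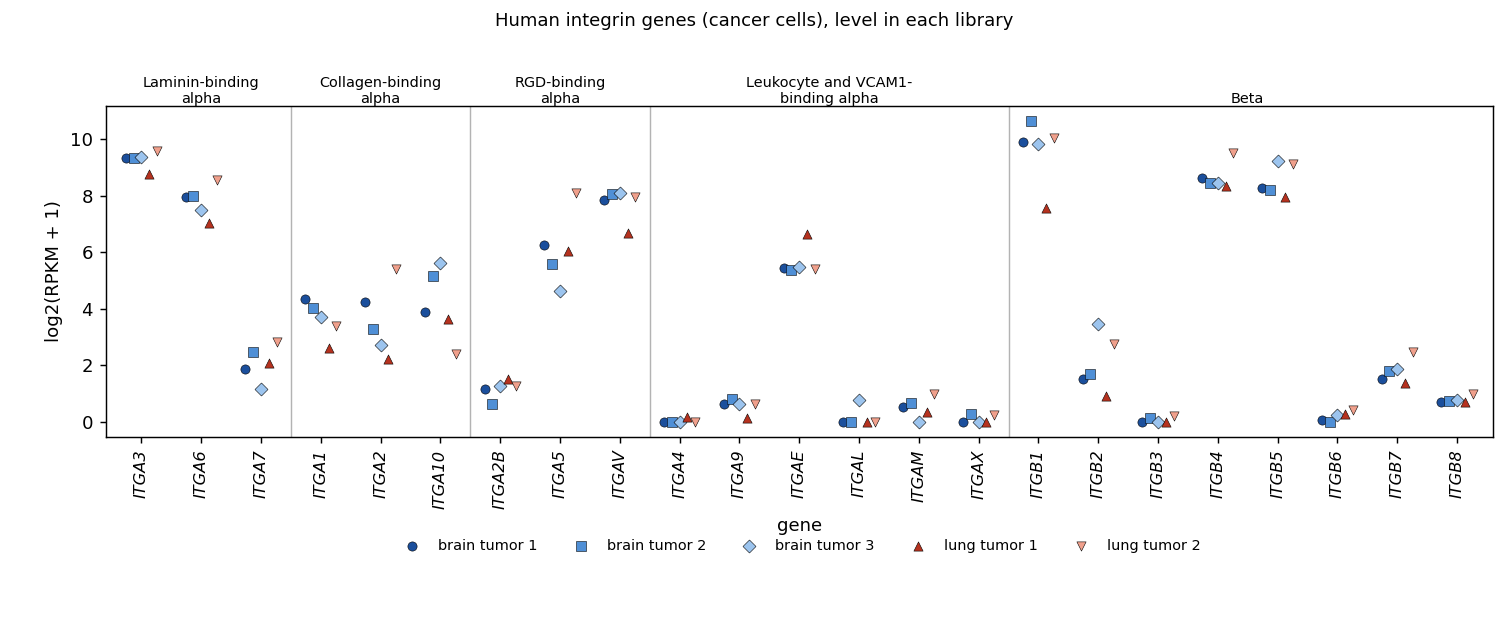
Level of each human integrin gene, as log2(RPKM + 1), in 3 brain tumors (blue) and 2 lung tumors (red), with genes grouped by the ligand class of the alpha subunit. ITGB1, ITGA3, ITGB4, ITGB5, ITGA6 and ITGAV have the highest means, ITGA5 reaches their range in lung tumor 2 (272 RPKM), and blue and red points overlap for all tested genes other than ITGA1 and ITGA10.

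A second tier of cancer cell integrins lay lower in RPKM, a measure that compares only roughly between genes here. The implied length was 605 bases for ITGA5 but 3170 for ITGA10 and 3703 for ITGA2. In brain tumors 2 and 3 ITGA10 had 698 and 366 reads and ITGA5 182 and 35. ITGA5, the alpha subunit of the fibronectin receptor α5β1, ranged from 23.8 RPKM in brain tumor 3 to 272 RPKM in lung tumor 2. ITGAE, the αE subunit best known from intraepithelial T cells, was near 42 RPKM in each brain tumor and in lung tumor 2 (40.4 to 43.8 RPKM) and at 99.7 RPKM in lung tumor 1. Its span overlaps HASPIN and P2RX5, and without strand in the counting their reads cannot be told apart. The pan-leukocyte marker PTPRC had 0.12 RPKM in brain tumor 1 in the human table and 0 in the other 4 libraries. Of the collagen receptors, ITGA10, ITGA2 and ITGA1 had means over the 5 libraries of 22.3, 15.3 and 12.2 RPKM. ITGB2, ITGA7, ITGB7 and ITGA2B had means of 4.15, 3.53, 2.63 and 1.29 RPKM, and the other 8 human members (ITGB8, ITGA9, ITGAM, ITGB6, ITGAL, ITGAX, ITGB3 and ITGA4) stayed under 1 RPKM in every library and were not tested. Of these, the leukocyte subunits ITGAM and ITGAX and the platelet and endothelial ITGB3 rested on 0 to 2 reads per library.

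Between brain and lung, 0 of the 15 tested human integrin genes were called by limma, and ITGA10, ITGA5 and ITGA1 had an unadjusted p under 0.05. Over all 14423 tested human genes 0.00693% were called, and 1517 had an unadjusted limma p under 0.05. The median log2 fold change, brain minus lung on the log2(RPKM + 1) scale, was 0.02 for the 15 integrins and 0.09 for all tested human genes. In 2 of the 15, both collagen receptors, brain lay above lung without overlap, as it did in 17.4% of all tested human genes, and in 0 it lay below (12.3% of all).

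ITGA10 (chromosome 1, 145891208 to 145910050), the alpha subunit of the collagen receptor of cartilage, had 13.9, 34.4 and 47.4 RPKM in brain and 11.4 and 4.30 RPKM in lung. All brain values lay above both lung values, though brain tumor 1 stood close to lung tumor 1. The log2 difference was 1.86 (SE 0.60), with a limma p of 0.0134 and an adjusted p of 0.454. ITGA1 (chromosome 5, 52787916 to 52959209), the collagen IV receptor subunit, had 19.3, 15.2 and 12 RPKM in brain and 5.15 and 9.34 RPKM in lung. Here too the groups did not overlap, with a log2 difference of 1.02 (SE 0.43, limma adjusted p = 0.474). ITGA1 spans the gene PELO, whose reads could be counted with it. The third collagen receptor gene, ITGA2, had 17.7, 8.75 and 5.55 RPKM in brain and 3.70 and 40.8 RPKM in lung, so that the 2 lung tumors enclosed all brain values.

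ITGA5 had 75.2, 47.1 and 23.8 RPKM in brain and 64.6 and 272 RPKM in lung, a log2 difference of -1.57 (SE 0.66) with a limma adjusted p of 0.473. Lung tumor 2 alone stood apart, and lung tumor 1 lay within the brain range. For the abundant laminin receptors the differences were small beside their intervals: 0.17 for ITGA3 (95% interval -0.68 to 1.01), 0.03 for ITGA6 (-1.04 to 1.10) and -0.42 for ITGB4 (-1.35 to 0.51). These intervals still hold a doubling, in brain for ITGA3, in lung for ITGB4 and in either for ITGA6, so equal levels are not shown. The difference of ITGB1 was 1.32 (-0.21 to 2.85), that of ITGAV 0.68 (-0.27 to 1.62) and that of ITGB5 0.02 (-1.07 to 1.11). Without lung tumor 2, which leaves lung tumor 1 as the single lung library, limma called ITGB1 at 2.55 and ITGAV at 1.31 above lung and ITGAE at -1.23 below it (adjusted p = 0.0221, 0.0265 and 0.0359), while 1905 human genes in all were then called.

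Human ITGB2, the common beta subunit of leukocyte integrins, had 1.87, 2.24 and 10.0 RPKM in brain and 0.88 and 5.75 RPKM in lung, from 4 to 17 reads. Its order over the 5 libraries was that of the share of mouse reads, which was 24.4%, 43.5% and 77.9% in brain and 3.41% and 58.6% in lung. The part of mouse reads in the human ITGB2 value was not tested.

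In the host, Itgb8 was called higher and Itga9, Itgb1, Itgb7, Itga5, Itgb2, Itga2b and Itgb3 lower around brain tumors than around lung tumors. Of the 22 tested mouse integrin genes 1 rose and 7 fell in brain relative to lung in the limma fit, and 14 were not called. Over all tested mouse genes 22.4% were called, 14.3% higher and 8.12% lower in brain. The median log2 fold change of the 22 was -1.63, against 0.08 over all tested mouse genes, and 17 of the 22 were negative and 5 positive. Under the other scalings tried, quantile normalization left 19 of them negative, voom on recovered reads 18 and median-ratio scaling 16. Brain lay below lung without overlap for 12 of the 22 and above it for 2, where 26.2% and 30.0% of all tested mouse genes did so. Itga10, among the 12, passed the filter only through its lung values, so its direction and lack of overlap follow from the filter.

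**Figure D2:**
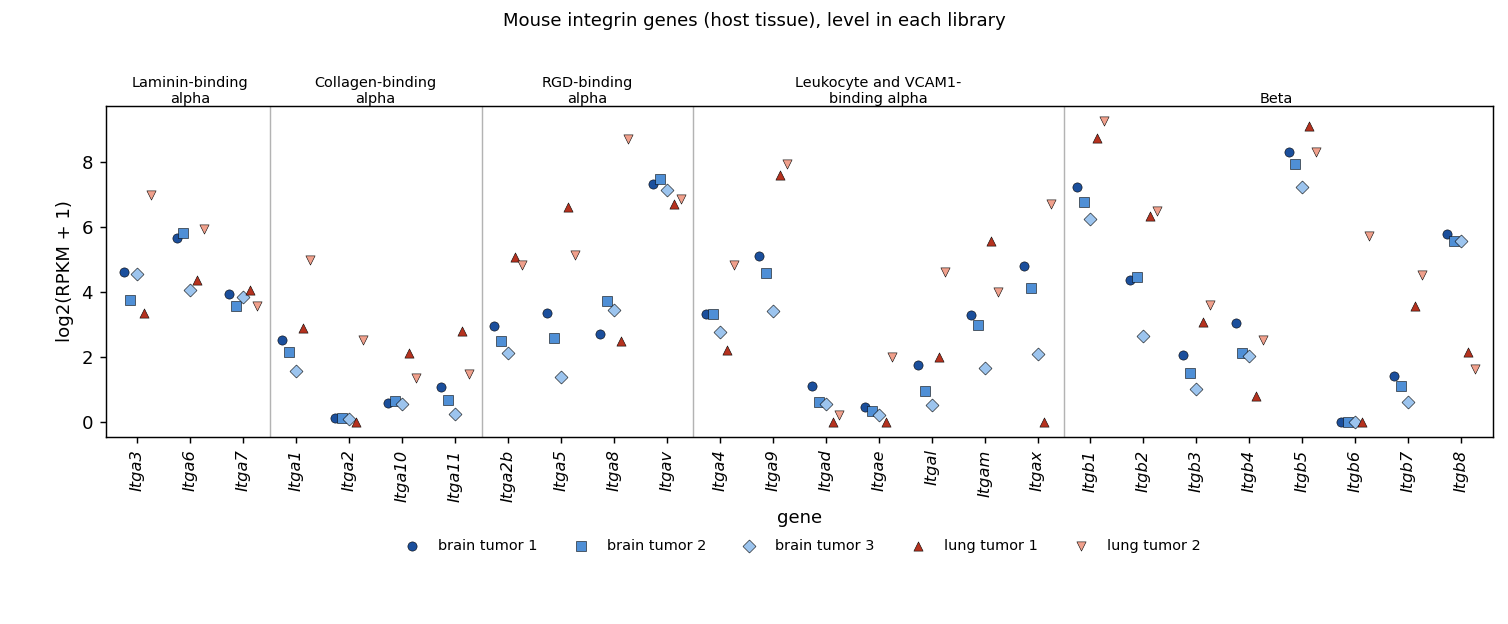
Level of each mouse integrin gene, as log2(RPKM + 1), in the host part of 3 brain tumors (blue) and 2 lung tumors (red). Itgb8 is higher in all 3 brain tumors (46.1 to 54.7 RPKM) than in both lung tumors (2.11 and 3.44 RPKM), and Itga9 is the reverse, with 9.60 to 33.3 RPKM in brain and 195 and 246 RPKM in lung.

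Itgb8 encodes the partner of αv in αvβ8, a receptor known from astrocytes and neural progenitors that binds latent TGF-β. Its level was 54.7, 46.1 and 46.9 RPKM in brain and 3.44 and 2.11 RPKM in lung, from 558, 851 and 1521 reads in brain and 3 and 42 reads in lung. The brain values lay close together, and the exact 95% Poisson interval of the lung tumor 1 value, which covers counting error only, was 0.709 to 10.1 RPKM. Long mouse genes lay low in lung tumor 1, and the part of gene length in its Itgb8 value was not tested. The log2 fold change was 3.75 (SE 0.35, limma adjusted p = 0.00218), and Itgb8 was called under all 13 other settings, with 3.50 to 4.38 and adjusted p from 0.00139 to 0.0281. Its partner Itgav had 160, 178 and 139 RPKM in brain and 103 and 117 RPKM in lung. The groups of Itgav did not overlap, but its difference of 0.52 (SE 0.28) was not called (limma adjusted p = 0.225). All 6 astrocyte markers were above 0 in every library, and their summed RPKM was 10703 to 13145 in brain, where lung tumors 1 and 2 had 187 and 151. The part of astrocytes in the Itgb8 difference was not tested.

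Itga9, whose product α9β1 binds VCAM1, tenascin C and osteopontin, fell, and it was the lower call kept under every other setting. It had 33.3, 23.0 and 9.60 RPKM in brain and 195 and 246 RPKM in lung, from 30 reads in lung tumor 1 and 864 in lung tumor 2. Both lung values exceeded every brain value by over 5 times. The log2 fold change was -3.42 (SE 0.54, limma adjusted p = 0.00959), and over the 13 other settings the adjusted p ranged from 0.00370 to 0.0490, highest without brain tumor 2. Itga4, the other VCAM1 receptor subunit, had 9.03, 8.95 and 5.73 RPKM in brain and 3.64 and 27.2 RPKM in lung, so that the lung tumors lay on both sides of the brain values.

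Among the host beta subunits, Itgb1, Itgb2, Itgb3 and Itgb7 fell with Itgb8 moving the other way. Itgb1 had 149, 108 and 75.5 RPKM in brain and 429 and 614 RPKM in lung, -2.25 on the log2 scale (SE 0.40, limma adjusted p = 0.0129). Every lung value was above every brain value, and in brain the order followed the share of human reads (75.6%, 56.5% and 22.1%). Itgb7, the partner of α4 and αE on lymphocytes, had 1.64, 1.16 and 0.515 RPKM in brain and 10.9 and 22.0 RPKM in lung (-3.01, SE 0.50, limma adjusted p = 0.0111), from 4 to 9 reads in each library other than lung tumor 2, which had 183. Summed T and NK cell markers (7 genes, 3 to 6 of them at 0 in each library other than lung tumor 2) were 0.946 to 3.44 RPKM in brain and 16.96 and 108 RPKM in lung, and 4 B cell markers 0.124 to 0.549 against 14.2 and 47.4 RPKM, and the part of lymphocytes was not tested. Itgb3, the beta subunit of platelets and of angiogenic vessels, had 3.19, 1.84 and 1.00 RPKM in brain and 7.47 and 10.99 RPKM in lung (-1.81, SE 0.49, limma adjusted p = 0.0476). Its call lies nearest the threshold and held under 6 of 13 other settings. Itgb5 (320, 244 and 149 RPKM in brain, 548 and 319 RPKM in lung) and Itgb4 (7.23, 3.36 and 3.07 against 0.742 and 4.72 RPKM) were not called. Itgb6, known from lung epithelium, was listed at 0 in 4 libraries and at 52.3 RPKM in lung tumor 2, where the number of reads is not fixed, and was not tested.

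The RGD-binding alpha subunits of the host divided. Itga5 had 9.14, 5.00 and 1.58 RPKM in brain and 98.2 and 34.0 RPKM in lung, -3.45 on the log2 scale (SE 0.74, limma adjusted p = 0.0244). Itga2b, the fibrinogen receptor subunit of platelets, had 6.68, 4.61 and 3.33 RPKM in brain and 32.5 and 27.7 RPKM in lung (-2.44, SE 0.41, limma adjusted p = 0.0116). For both genes the 2 groups were far apart. The summed RPKM of 6 platelet markers, of which Itga2b is 1, was 9.93 to 24.7 in brain but 3810 and 93.4 in lung tumors 1 and 2, with Pf4 at 3743 and 43.6 RPKM, and the part of platelets was not tested. Itga8 had 5.46, 12.1 and 9.94 RPKM in brain, 4.56 RPKM from 1 read in lung tumor 1 and 417 RPKM in lung tumor 2, so that its difference of -2.31 (SE 1.71) came from 1 library.

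Of the host leukocyte genes, Itgb2 fell and its alpha partners were not called. Itgb2 had 19.7, 21.1 and 5.27 RPKM in brain and 80.4 and 90.0 RPKM in lung, -2.60 on the log2 scale (SE 0.62, limma adjusted p = 0.0327), and was called under 7 of 13 other settings. Itgam, the αM of macrophages, microglia and neutrophils, had 8.82, 6.97 and 2.16 RPKM in brain and 46.8 and 15.2 RPKM in lung (-2.15, SE 0.71, limma adjusted p = 0.0803). Itgal, the αL of LFA-1, had 2.39, 0.943 and 0.430 RPKM against 3.00 and 23.6 RPKM, and Itgax, the αX of dendritic cells and macrophages, 26.6, 16.5 and 3.22 RPKM against 0 and 103 RPKM. Thus Itgam was higher in lung tumor 1 and Itgal and Itgax in lung tumor 2. Itgad, Itgae and the second Itgam identifier were under the filter, with at most 1.12, 2.99 and 0.07 RPKM. The 8 macrophage and monocyte markers were above 0 in all libraries and summed to 121 to 630 RPKM in brain and 6959 and 4535 RPKM in lung. Most of the lung sums was Lyz2 (2777 and 4216 RPKM) and Marco (3210 and 29.2 RPKM). Csf1r overlapped, with 130, 130 and 50.1 RPKM in brain and 88.5 and 57.9 RPKM in lung. Cd68 had 69.4, 68.9 and 22.2 RPKM in brain and 523 and 70.6 RPKM in lung. Adgre1, Mrc1, Cd14, Ccr2, Lyz2 and Marco were higher in both lung tumors than in every brain tumor. The 7 microglial markers summed to 140 to 521 RPKM in brain and 315 and 148 RPKM in lung, with 2 of them at 0 in lung tumor 1. The 7 neutrophil markers summed to 10.8 to 31.1 RPKM in brain and 533 and 405 RPKM in lung. The part of these cell types in the leukocyte integrins was not tested.

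Of the laminin and collagen receptors of the host limma called 0, with an unadjusted p under 0.05 for 0 of 3 laminin and 3 of 3 collagen receptor subunits. Over all 15431 tested mouse genes 22.4% were called, and 5940 had an unadjusted limma p under 0.05. Itga6 had 49.9, 55.1 and 15.7 RPKM in brain and 19.8 and 60.5 RPKM in lung, and Itga7 had 14.4, 10.8 and 13.2 against 15.8 and 10.7 RPKM, the narrowest range of any host integrin as a ratio of highest to lowest. Itga3 had 23.5, 12.5 and 22.7 RPKM in brain but 9.26 RPKM in lung tumor 1 and 125 RPKM in lung tumor 2. The 3 tested collagen receptors were each lower in all brain tumors than in both lung tumors. The log2 differences were -1.86 for Itga1, -1.14 for Itga10 and -1.46 for Itga11, with limma adjusted p of 0.116, 0.0983 and 0.108. Their lung values differed widely, for Itga1 6.34 and 30.6 RPKM and for Itga11, a fibroblast collagen receptor, 5.88 and 1.76 RPKM. Itga10 was under 1 RPKM in every brain tumor and passed the filter only through the lung tumors, with 4 reads in lung tumor 1. Its direction and lack of overlap follow from that filter. Itga2 reached 4.74 RPKM in lung tumor 2, stayed under 0.1 RPKM elsewhere, and was not tested.

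Of the 8 host calls, those of Itgb8 and Itga9 were kept whichever library was left out, and the other 6 were not. Without brain tumor 2 only Itgb8 and Itga9 of the 22 were called, and without brain tumor 3 Itgb8, Itga9 and Itgb2. Itgb2 and Itgb3 lost their calls without brain tumor 1 and also without lung tumor 2, and Itga5 and Itgb2 without lung tumor 1. Over all mouse genes the calls went from 3457 to 1518, 1195 and 1294 without brain tumors 1, 2 and 3.

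**Figure D3:**
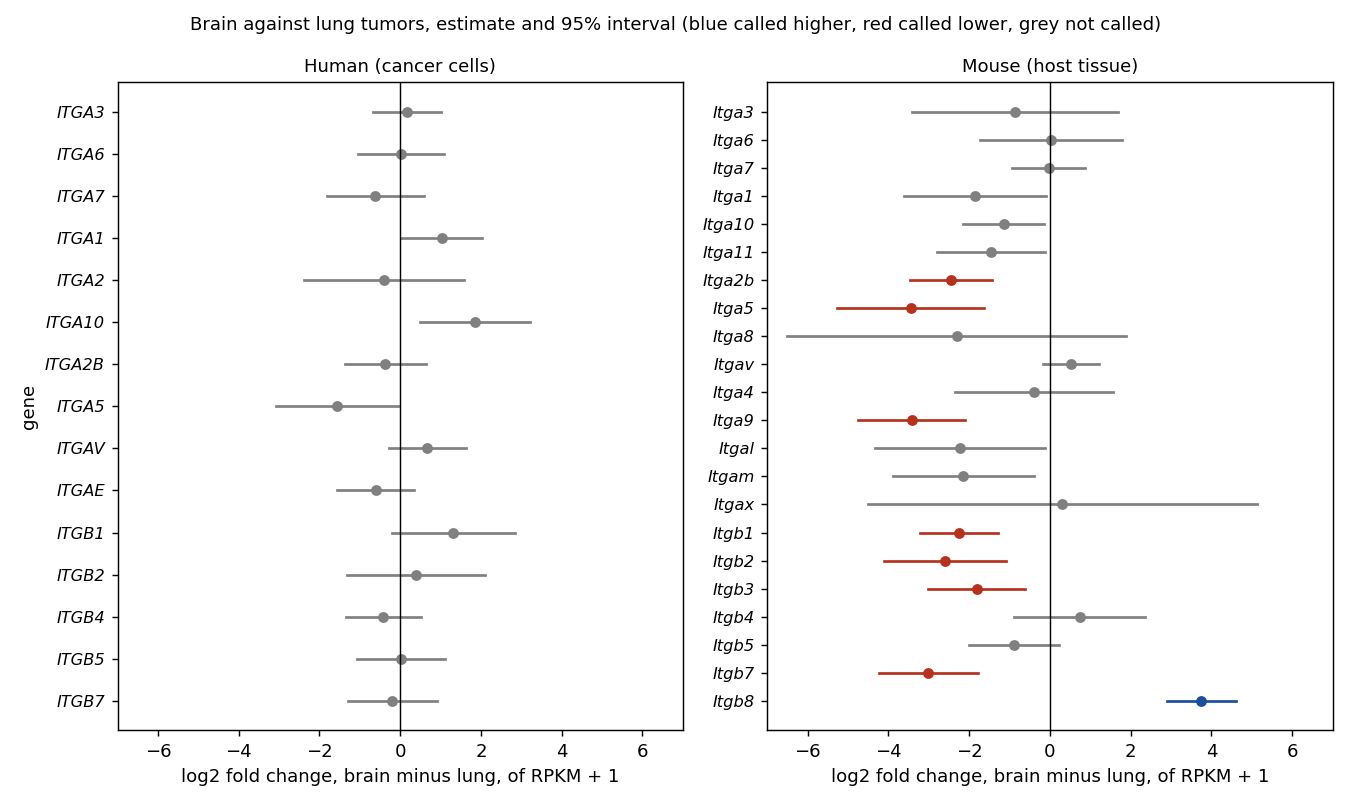
Log2 fold change of RPKM + 1, brain minus lung, with its 95% interval from limma, for the tested integrin genes of the cancer cells (left) and the host (right). No human gene was called, and in the mouse Itgb8 (3.75) is called higher and 7 genes, from Itgb3 (-1.81) to Itga5 (-3.45), are called lower.

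The brain minus lung difference of a cancer cell gene was set against that of its host namesake within each library, as log2(human RPKM + 1) minus log2(mouse RPKM + 1), which asks if the tumor cells and their surroundings moved apart. The offset between the species within a library depends on the gene lengths behind RPKM, which imply 975 bases for ITGB4 and 5804 for Itgb4, 605 and 4473 for ITGA5 and Itga5, and 584 and 924 for ITGB1 and Itgb1. Only its change between brain and lung is therefore compared, not which species is higher. Of 13 integrin pairs tested 5 were called by limma, all with the human gene higher in brain relative to the mouse gene, beside 16.3% called over all 10189 pairs (7.87% in this direction and 8.47% in the other). The median of the 13 was 1.88 and that of all pairs 0.14. These counts and the median include the ITGA10 pair, whose mouse gene passed the filter only through its lung values.

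ITGB1 gave the largest difference. The human minus mouse value was 2.68, 3.86 and 3.57 on the log2 scale in brain, and the 2 lung tumors had -1.17 and 0.76. All brain values were above both lung values, and the difference was 3.57 (SE 0.62, limma adjusted p = 0.0128), called under 9 of 10 other settings. The mouse gene was called alone (-2.25). The human gene was not (1.32), and its lung tumor 2 value lay within the brain range.

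The collagen receptor pair ITGA10 had 3.31, 4.51 and 5.04 in brain and 1.51 and 1.06 in lung, and differed by 3.00 (SE 0.65, limma adjusted p = 0.0242). The ITGA1 pair had 1.83, 1.87 and 2.14 in brain and -0.26 and -1.61 in lung, and differed by 2.88 (SE 0.56, limma adjusted p = 0.0178). In both pairs the human gene was higher in brain and the mouse gene lower, though neither gene was called alone. Mouse Itga10 passed the filter only through its lung values, from 4 and 42 reads, so its direction follows from the filter. ITGB7 (2.82, SE 0.58, limma adjusted p = 0.0212) and ITGA2B (2.08, SE 0.56, limma adjusted p = 0.0478) were called through the mouse gene, since their human log2 differences were -0.20 and -0.37. Of the other settings, the ITGA1 pair was called under 7 of 10, ITGA10 under 6 of 9, ITGB7 under 5 of 9 and ITGA2B under 2 of 9.

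The laminin receptor pair ITGA6 differed by 0.00431, with a 95% interval of -1.01 to 1.02. ITGAV differed by 0.15 (-0.77 to 1.07) and ITGB4 by -1.16 (-2.10 to -0.22, limma adjusted p = 0.0930), the ITGB4 pair being the most negative of the 13. Its human minus mouse value was 5.58 to 6.40 in brain and 7.53 and 6.98 in lung tumors 1 and 2. ITGA5 (1.88, limma adjusted p = 0.205) and ITGB2 (2.99, limma adjusted p = 0.127) were not called, and ITGA5 in lung tumor 1, at -0.60, lay far below the 2.91 to 3.27 of the other 4 libraries. ITGA8, ITGB8, ITGA9 and other subunits abundant on only 1 side do not enter, since 1 gene of the pair was under the filter or not analysed here. The 5 pair calls rested on the full set of brain tumors: without brain tumor 3, 0 integrin pairs were called by limma, without brain tumor 2, 1, and without brain tumor 1, 3.

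**Figure D4:**
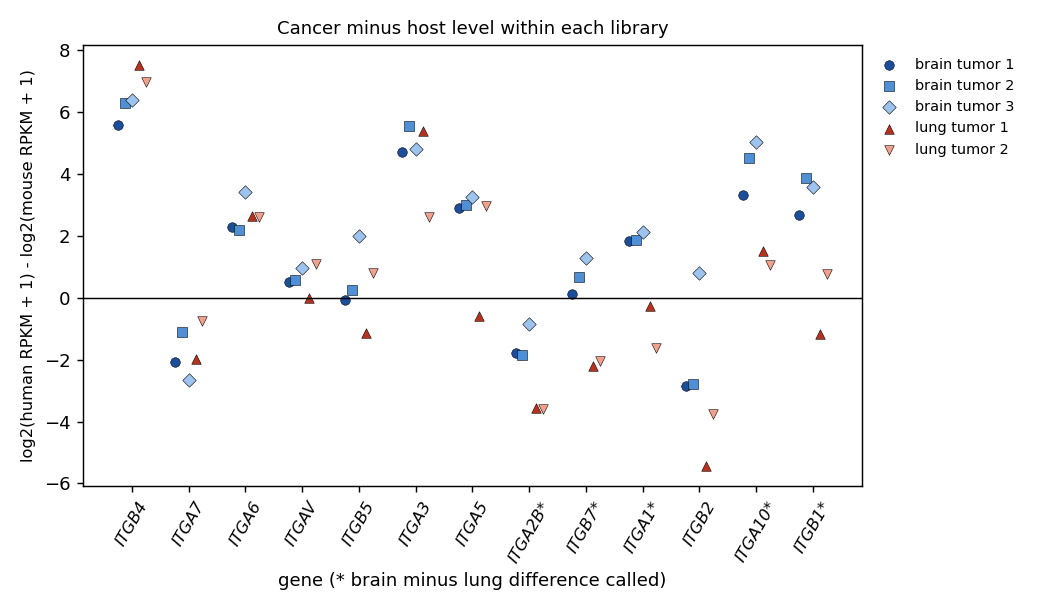
Difference between the human and the mouse level of each integrin pair within each library, on the log2(RPKM + 1) scale, ordered by the brain minus lung difference, with called pairs starred. For ITGB1, ITGA10 and ITGA1 the 3 brain tumors (blue) lie above both lung tumors (red), and for ITGA6 and ITGAV they mix.

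The human share of the reads of each subunit was set against that of its whole library. The shares also depend on the counted gene lengths, which imply 665 bases for ITGA7 and 4099 for Itga7. They therefore do not show which side of the tumor supplied more of a subunit. Of the 20 genes with reads fixed in both tables, ITGA3, ITGA6, ITGAE and ITGB4 had a human share above that of the whole library in all 5 libraries, with Wilson 95% intervals clear of it. ITGA7, ITGA9, ITGAM, ITGB3 and ITGB8 were below it in all 5, and the other 11 were mixed or not separated. These intervals cover counting error only, and how reads were assigned to human or mouse is not stated in the labels.

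The reads of ITGB4 were mostly human in every library, as were those of ITGA2 (83.9% to 100%). The human share of ITGB4 was 96.6%, 95.7% and 84.1% in brain tumors whose library shares were 75.6%, 56.5% and 22.1%, and 94.8% in lung tumor 2, whose library share was 41.4%. In lung tumor 1 there were 2039 human reads and 1 mouse read. For ITGA3, the share in lung tumor 2 was 53.3%, from 2111 human and 1853 mouse reads, which shows host Itga3 at its highest in that library.

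ITGB8 was read mostly from the host in brain, with a human share of 3.29%, 1.73% and 0.39% in brain, where 19, 15 and 6 human reads faced 558, 851 and 1521 mouse reads. In lung its human share was 82.4% (14 human and 3 mouse reads) and 23.6% (13 and 42 reads). Its human level was 0.61 to 0.99 RPKM in all 5 libraries. ITGA9 had 1 to 7 human reads per library against 30 to 864 mouse reads, and the human share was 0% to 2.5% for ITGAM and 0% to 2.08% for ITGB3. ITGB1 was split, with 92.7%, 92.3% and 68.2% human reads in brain and 88.7% and 43.1% in lung.

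**Figure D5:**
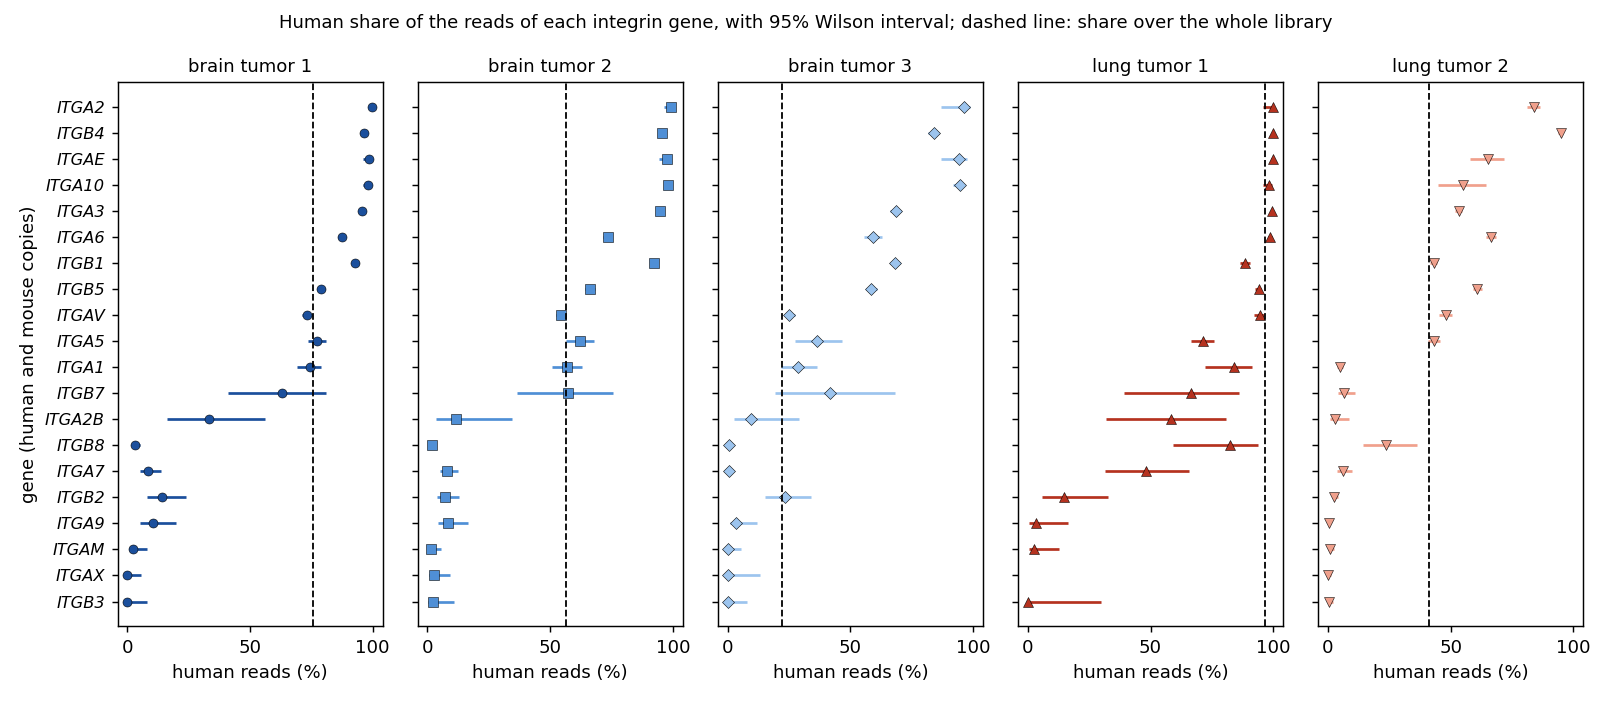
Share of human reads, in percent, among the human and mouse reads of each integrin gene in each library, with Wilson 95% intervals and a dashed line at the share of the whole library. ITGB4, ITGAE, ITGA3 and ITGA6 lie right of the line in every panel and ITGB8, ITGA7, ITGA9, ITGAM and ITGB3 left of it.

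Ligand genes of these receptors were called in the host, where 14.3% of all tested genes were called higher and 8.12% lower. Of 10 tested mouse collagens all 10 fell in brain, among them Col3a1 with 187, 20.8 and 15.1 RPKM in brain and 4244 and 3365 RPKM in lung (-6.55, SE 1.07). Col1a1, Col5a2 and Col1a2 fell too (-6.00, -5.34 and -5.17). Summed fibroblast markers, 5 genes that include Col1a1, were 127 to 562 RPKM in brain and 10642 and 5363 RPKM in lung, and their part was not tested. Among the mouse laminins Lamb1 and Lamb2 fell (-3.06 and -1.29), and 0 rose.

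Of 15 RGD proteins and related matrix genes of the host 9 fell and 2 rose. Postn and Thbs1, matrix proteins of wound and stroma, fell (-5.02 and -4.60), and Fn1, fibronectin itself, had 143, 84.1 and 53.3 RPKM in brain and 828 and 1661 RPKM in lung (-3.75, SE 0.53). Edil3, an RGD protein that binds αv integrins, rose by 3.96 (SE 1.04), from 0 and 11.7 RPKM in lung to 41.8 to 62.4 RPKM in brain. Of 10 tested counter-receptors the neuronal adhesion molecules L1cam, Icam5 and Thy1 rose (4.88, 4.21 and 3.16) and the junction molecule F11r fell (-2.63). The 7 neuron markers of the host summed to 1970 to 2757 RPKM in brain and 41.7 and 31.6 RPKM in lung, and their part was not tested. The limma adjusted p of these named ligands and counter-receptors was at most 0.0479.

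Inside the host cells, 5 of 26 tested adaptors and kinases were called, near the 22.4% of all tested mouse genes. Ptk2b, a kinase related to focal adhesion kinase, rose by 2.57, and the focal adhesion proteins Tgfb1i1, Zyx and Actn4 were among the 4 that fell (-2.52, -1.86 and -1.58). The tetraspanin Cd151, which binds laminin receptors, fell (-1.95) and was the only call among 7 tested partners, a share no higher than that of all genes. The medians of the 6 mouse lists were -4.23 for collagens, -2.51 for the RGD list, -1.60 for laminins, -1.23 for adaptors and -0.91 for both counter-receptors and partners, against 0.08 over all tested mouse genes.

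In the cancer cells 0 members of the same 6 lists were called by limma, with an unadjusted p under 0.05 for 1 of 8 laminins, 3 of 9 collagens, 6 of 12 RGD genes, 0 of 7 counter-receptors, 2 of 23 adaptors and 1 of 8 partners, beside 1517 of all 14423 tested human genes. The cancer cells transcribed laminin chains themselves, with LAMA5 at 1517, 1850 and 1775 RPKM in brain and 727 and 1632 RPKM in lung, and LAMB1 and LAMB2 at means of 975 and 786 RPKM. Osteopontin, SPP1, was at 2367 to 5348 RPKM over the 5 libraries. Tenascin C, TNC, a ligand of αv and α9 integrins, had 917, 559 and 635 RPKM in brain and 120 and 322 RPKM in lung. Its log2 difference was 1.80 (SE 0.47, limma adjusted p = 0.389), and brain lay above lung without overlap. TGFB1 went the other way, with 216, 268 and 179 RPKM in brain and 410 and 334 RPKM in lung. The log2 difference of TGFB1 was -0.76 (SE 0.33, limma adjusted p = 0.475), also without overlap. Of all tested human genes, brain lay above lung without overlap in 17.4% and below it in 12.3%. The 9 human collagens had a median of 1.61, with the most abundant, COL1A1, at 222, 115 and 122 RPKM in brain and 63.6 and 508 RPKM in lung.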

How the data were processed

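RNA of 3 brain and 2 lung tumors was measured in 1 human and 1 mouse table. The deposited values are RPKM per gene and library, made by the authors on hg38 (GRCh38) and mm10 (GRCm38) per the submitters' processing notes. Aligner, counter, gene lengths and how reads were split between human and mouse were not given in the sources used here, so levels of different genes compare only roughly. The members and all gene lists were chosen with earlier results of these data known.

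Whole reads were recovered from RPKM ratios between libraries for 100% of values (all 25524 human and 24628 mouse genes, within 2.9e-10 reads), up to a common divisor per gene. For genes above 0 in 1 library (4393 human, 3995 mouse, among them human ITGA4 and ITGAL and mouse Itgb6 and the second Itgam) the number is not fixed. The count test on these reads, limma's voom, called 0 human and 4233 mouse genes.

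The fit took log2(RPKM + 1) into limma 3.58.1 (R 4.3.3; brain minus lung, eBayes with trend, both directions) for genes with 1 RPKM or more in at least 2 libraries, with Benjamini-Hochberg adjustment per species. Pairs with the same symbol in both tables were fitted on the within-library difference. The smallest exact permutation p of 3 libraries against 2 is 0.2. The fits and the read recovery were tested on simulated data. Every member is named. From each other list up to 4 called genes with the largest fold change are named. With 0 called, genes among the 3 most abundant are named, for the human laminins, collagens and RGD list only. Of these, 1 gene is not reported here. Settings varied were the pseudocount, the filter, scaling, the trend, voom, the replicate block and leaving out each library. Human positions and overlaps are from the RefSeq gene table of GRCh38.p14.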

Additional observations from a re-analysis of the deposited data

Results flagged for a closer look

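For 5 genes the brain minus lung difference in the cancer cells differed from that of the same gene in the host, by limma's test of the within-library difference with adjustment over 10189 pairs. The human gene was higher in brain relative to the mouse gene by 3.57 for ITGB1, 3.00 for ITGA10, 2.88 for ITGA1, 2.82 for ITGB7 and 2.08 for ITGA2B on the log2 scale, with all 3 brain tumors above both lung tumors in each. The adjusted p over the other settings ranged from 0.000911 to 0.0737 for ITGB1, 0.0269 to 0.0935 for ITGA10, 0.00544 to 0.0752 for ITGA1, 0.0182 to 0.0883 for ITGB7 and 0.0473 to 0.230 for ITGA2B. ITGB7 and ITGA2B rest on few reads, 5 to 13 and 2 to 7 human reads per library. The mouse genes Itgb7, Itga2b, Itga10 and Itga1 had 4, 5, 4 and 9 reads in lung tumor 1. In brain tumors 1, 2 and 3 mouse Itga10 had 7, 14 and 21 reads. Mouse Itga10 passed the filter only through its lung values. The direction of the mouse side of the ITGA10 pair therefore follows from the filter. No group held 4 or more libraries, so single libraries were not tested as outliers.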

How the results depend on the processing

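Of the alternative values 492 kept direction and side of the threshold, 43 were weaker, 21 stronger and 43 had the opposite sign, all of genes and pairs that were not called. The median of all mouse genes was 0.08, and 0.22, -0.11 and -0.15 with median-ratio scaling, quantile normalization and voom. Higher and lower mouse calls were 2204 and 1253, and 2143 and 1822 with quantile normalization and 2147 and 2086 with voom. The counts were 1 human and 3457 mouse genes, 1665 pairs, 0 human and 8 mouse integrin genes and 5 integrin pairs. Voom called 0 human genes, leaving out the filter 2295 mouse genes, a pseudocount of 0.1 gave 3 integrin pairs and a filter at 5 RPKM 2. Leaving out 1 library gave 0 to 1905 human genes, 0 to 3 human integrin genes, 1195 to 8275 mouse genes, 2 to 11 mouse integrin genes, 414 to 3486 pairs and 0 to 7 integrin pairs, and where a lung tumor is left out the lone lung library is assumed to vary like the brain group. With the replicate block there were 114 human and 1484 mouse genes, 3 mouse integrin genes and 2 integrin pairs. The numbers share only a name, since deviations of same-numbered tumors correlated at -0.082 and 0.059 in human and 0.035 and 0.050 in mouse genes. The cause of these changes was not tested.

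Opposite signs, as log2 differences, were these. Median-ratio scaling gave human ITGA6 -0.12 and ITGB5 -0.12, mouse Itga7 0.11, and pairs ITGA6 -0.29 and ITGAV -0.15. Quantile normalization gave human ITGA6 -0.0034, mouse Itgax -0.14 and Itga6 -0.047, and voom mouse Itgax -2.66, Itga7 0.11 and Itga6 -0.45. The replicate block gave human ITGB2 -0.22, ITGB5 -0.31 and pair ITGA6 -0.39. Leaving out 1 library at a time gave, in human, ITGA2 -1.98 to 1.18, ITGA3 -0.25 to 0.58, ITGA6 -0.73 to 0.78, ITGAE -1.23 to 0.023, ITGB2 -0.53 to 1.31, ITGB4 -1.0 to 0.16, ITGB5 -0.56 to 0.60 and ITGB7 -0.74 to 0.35. In mouse it gave Itga3 -2.67 to 0.95, Itga4 -1.68 to 0.92, Itga6 -0.76 to 0.80, Itga7 -0.29 to 0.22, Itga8 -5.42 to 0.81, Itgax -3.04 to 3.67 and Itgb4 -0.12 to 1.60. For pairs it gave ITGA3 -0.37 to 2.42, ITGA6 -0.39 to 0.22, ITGA7 -1.21 to 0.038, ITGAV -0.39 to 0.70 and ITGB5 -0.074 to 1.87. Lung tumors 1 and 2 set most of these bounds. Depth limits mouse values of lung tumor 1 most, where several integrins rest on 0 to 4 reads.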

Other observations

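Within the 3 brain tumors, the order of many host integrin levels was that of the human share of the library. Of the 22 tested mouse integrin genes 14 were highest in brain tumor 1 (75.6% human reads), intermediate in brain tumor 2 (56.5%) and lowest in brain tumor 3 (22.1%), and 0 had the opposite order. Over all tested mouse genes 28.7% and 14.7% did so. The 14 were Itga1, Itga11, Itga2b, Itga4, Itga5, Itga9, Itgal, Itgam, Itgax, Itgb1, Itgb3, Itgb4, Itgb5 and Itgb7. Itgb8 was not among them, and its 3 brain values lay between 46.1 and 54.7 RPKM. Of the 15 tested human integrin genes 3 (ITGA1, ITGA2 and ITGA5) had this order and 4 (ITGA10, ITGAV, ITGB2 and ITGB7) the opposite, beside 21.7% and 19.6% of all tested human genes. With 1 tumor at each share, these orders are values of 3 libraries and were not tested. Summed host macrophage markers had the same order (630, 488 and 121 RPKM), as had summed endothelial markers (196, 148 and 90.6 RPKM). Csf1r alone of the macrophage markers did not follow it. The fibroblast sum (562, 193 and 127 RPKM) had this order through Col1a1 (419, 67.4 and 42.9 RPKM). Of the other fibroblast markers Dpt followed it, but Pdgfra (97.4, 112 and 58.9 RPKM), Dcn and Lum did not. The part of these cell types in the order was not tested.

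The 2 lung tumors were far apart for several integrins. Host Itga8 was 91.3 times and Itga3 13.5 times as high in lung tumor 2 as in lung tumor 1, where Itga8 rested on 1 read and Itga3 on 6. In the cancer cells ITGA2 was 11.03 times, ITGB1 5.48 times and ITGA5 4.20 times as high in lung tumor 2, and ITGA10 and ITGAE 0.378 and 0.415 times as high.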
